A study of Mus musculus with 6 samples.

Results

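The epidermal differentiation complex is a cluster of genes on mouse chromosome 3 that are switched on as keratinocytes of the skin mature into cornified cells. Its members were taken by symbol from the table of gene counts: all genes named Sprr (small proline-rich proteins), Lce with a number (late cornified envelope) or S100a with a number (calcium-binding S100 proteins), and the genes Lor, Ivl, Rptn, Hrnr, Tchh, Crnn and Flg2. This gave 55 of the 23420 genes in the table: 15 Sprr, 20 Lce and 13 S100a genes and the 7 genes named singly. All 55 were found on chromosome 3 of the mm10 build (GENCODE annotation), between 90511034 and 93564643, a span of 3.054 Mb.

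Keratinocytes of the basal layer divide, and those that leave it build the cornified envelope, a sheet of cross-linked protein that replaces the plasma membrane of dead surface cells. Involucrin, loricrin, small proline-rich and late cornified envelope proteins are joined in that sheet by transglutaminases, and filaggrin-type proteins bundle or surround the keratin filaments inside it. Many S100 proteins are also made in basal cells, where they bind calcium and act on partners such as annexins, and some of them rise in wounded or inflamed skin.

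Gene expression was measured by mRNA sequencing of total RNA from cultured mouse epidermal keratinocytes, in 3 libraries labelled WT and 3 labelled iKO (induced knockout). Cells of both groups carried Gata6 fl/fl, alleles of the transcription factor gene Gata6 flanked by loxP sites. The libraries labelled iKO were K14CreERT2+, with a tamoxifen-activated Cre recombinase under the keratin 14 promoter, which is active in basal keratinocytes, and the libraries labelled WT were K14CreERT2-. Both groups were grown in low calcium E medium, a condition that keeps keratinocytes basal, and received 4-hydroxytamoxifen at 1 µM for 6 hours at passage 8 to 10. The comparison asks which transcripts differ between the groups. Nothing in the labels says that the libraries are from different cultures or mice. The p-values therefore reflect the spread between these libraries alone, and that spread may be technical.

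Reads assigned to genes numbered 21943467 to 83337263 per library. Levels of the targeted gene did not follow the labels: Gata6 stood at 2.92 ± 2.43 normalised CPM in the libraries labelled WT and 17.4 ± 3.44 in those labelled iKO (SD, n = 3), with a log2 fold change of 2.60 (SE 0.72, edgeR adjusted p = 0.180). The Esr1 gene, whose ligand-binding domain is part of CreERT2, did follow them, at 0.147 ± 0.120 and 73.7 ± 38.3 CPM (SD, n = 3; log2 fold change 9.10, edgeR adjusted p = 0.00678). Since the Gata6 count also takes in exons that were not deleted, it does not check the loss of the floxed ones. CPM are gene counts scaled to a common library size, with TMM factors. All differences are given as iKO minus WT by label. Xist, the RNA of the inactive X chromosome, also differed with the label. It averaged 736 ± 143 CPM in WT and 1.17 ± 1.31 in iKO libraries (SD, n = 3). The sex of the cells was not tested by other genes. A difference in sex would coincide with the label, and the 2 could not be told apart. The cells carried the markers of basal keratinocytes: the summed level of 12 markers, led by Krt5 and Krt14, was 34490 to 49054 CPM in the libraries labelled WT and 36455 to 53781 in those labelled iKO. Krt5 and Krt14 made up most of this sum. Of the 12 markers, 6 had positive and 6 negative log2 fold changes. None passed in edgeR, and DESeq2 called 1, Trp63, as lower in the libraries labelled iKO, beside 5.74% of all genes with an adjusted p. Markers of fibroblasts summed to at most 4.75 CPM in any library, with Dcn and Lum at 0 in all 6, and markers of Langerhans and T cells to at most 0.0320. Melanocyte markers summed to 6.08 to 11.9 CPM in WT and 5.69 to 8.47 in iKO libraries. Markers of muscle and nerve, other sources of S100 genes, summed to at most 6.87 CPM. The part of either set of cells in the members' values was not tested. The 4 endothelial markers summed to 9.87 to 19 CPM in WT and 7.58 to 8.99 in iKO libraries, led by Kdr, with no call in edgeR or DESeq2, and their part in the members' values was not tested.

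WT 3 and iKO 3 stood apart from the other libraries of their groups in these genes. Of the 50 members with enough counts to be tested, WT 3 was the highest of the 6 libraries in 27, where 21% of all 12672 tested genes had WT 3 highest. In another 18 members iKO 3 was highest, where the share over all tested genes was 21.4%. The median ratio of WT 3 to the mean of WT 2 and WT 4 was 2.22 over the tested members and 0.995 over all tested genes. Within groups, the median SD of log2 CPM was 0.756 for the members and 0.235 for all tested genes. The map of members by library shows most Lce genes and the genes Crnn, Hrnr and Rptn highest in WT 3, and most Sprr genes highest in iKO 3. WT 3 held 79055307 gene reads and iKO 3 held 32751896, and the part of depth in this was not tested.

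**Figure D1:**
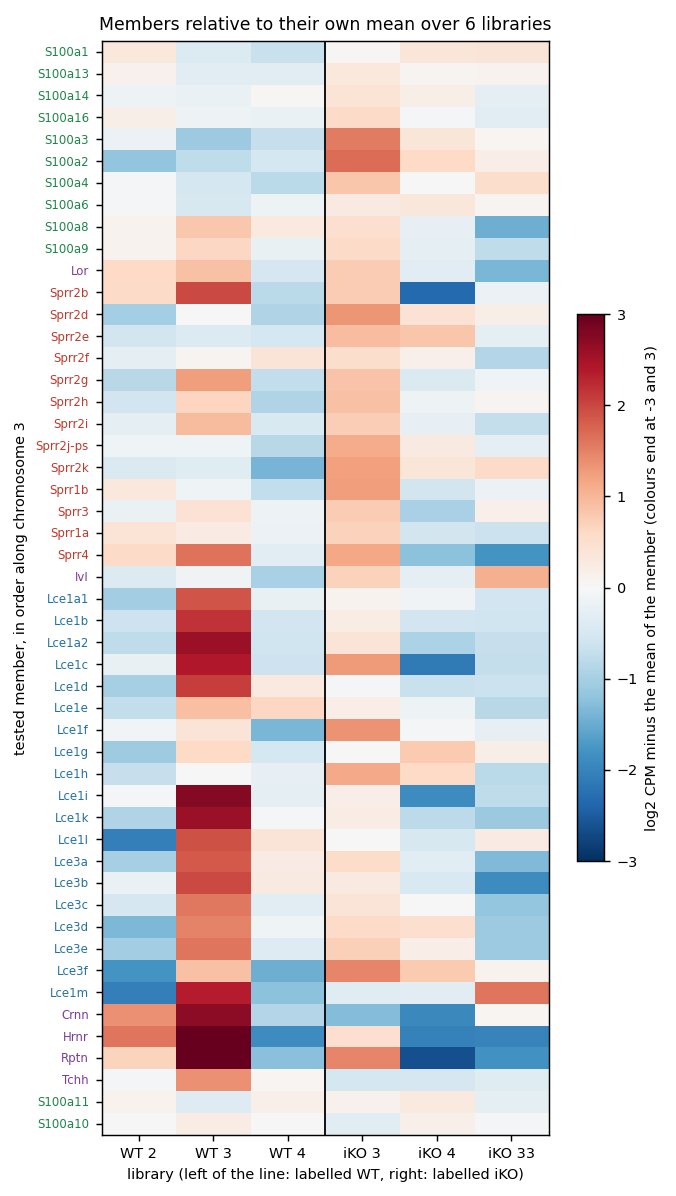
Each row is a tested member in order along chromosome 3 and each column a library, with the colour giving log2 CPM minus the mean of that member over the 6 libraries. WT 3 is the darkest red across most Lce genes, and iKO 3 is red across most Sprr genes.

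No member passed edgeR's quasi-likelihood test at an adjusted p of 0.05, where 0.339% of all tested genes passed. An unadjusted p under 0.05 was reached by 11 of the 50 tested members, beside 15% of all tested genes. The groups did not overlap for 8 members. Of these, 7 were higher in every library labelled iKO (Sprr2d, Sprr2e, Sprr2k, S100a2, S100a3, S100a4 and S100a6), where 10.5% of all tested genes were, and only Tchh was lower in every one, where 11.3% of all tested genes were. DESeq2 called 4 members (Sprr2d, Sprr2e, Sprr2k and S100a3), with 5.74% of all genes that had an adjusted p called. The authors' deposited table has an adjusted p under 0.05 for these 4 members, and for 5.9% of all genes given one there. It compares the same groups, so it is no separate support. Log2 fold changes were positive in 21 tested members and negative in 29, with a median of -0.19 and a range of -3.84 to 1.94, and the median over all tested genes was 0.01. Without WT 3, 33 were positive and 17 negative, with a median of 0.32, and the median was -0.54 without iKO 3 and 0.04 without iKO 33. The 5 members that were not tested had too few reads, so these counts do not cover all 55. In bulk RNA, fewer cells of a maturing type and less RNA per cell cannot be told apart.

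The Sprr genes encode short envelope proteins made of proline-rich repeats. Within the Sprr2 subfamily, Sprr2k, Sprr2d and Sprr2e had higher values in all 3 libraries labelled iKO. Sprr2f, Sprr2g and Sprr2i had log2 fold changes of -0.05, -0.04 and -0.17. These were -0.06, 0.99 and 0.42 without WT 3, and -0.37, -0.52 and -0.69 without iKO 3. Sprr2k measured 32.4, 33.9 and 16.5 CPM in WT 2, WT 3 and WT 4 and 103, 56.5 and 65.5 CPM in iKO 3, iKO 4 and iKO 33. All libraries labelled iKO were above all labelled WT, with iKO 3 the highest. The log2 fold change of Sprr2k was 1.44 (SE 0.33), the smallest p of any member, and edgeR's adjusted p was 0.138. It stayed between 1.14 and 1.62 whichever library was left out, the highest being without WT 3. In DESeq2 Sprr2k passed with a log2 fold change of 1.43 and an adjusted p of 0.00119. The authors' deposited table gives it a log2 fold change of 1.09 with an adjusted p of 0.00139. The reason for the smaller value there was not tested. Sprr2d measured 39.4, 79.5 and 42.8 CPM in WT 2, WT 3 and WT 4 and 202, 108 and 90.8 CPM in iKO 3, iKO 4 and iKO 33. WT 3 lay close below the lowest library labelled iKO. A log2 fold change of 1.31 (SE 0.38, edgeR adjusted p = 0.194) resulted, which was 1.70 without WT 3 and 0.88 without iKO 3. Sprr2e measured 6.22, 6.83 and 6.31 CPM in WT 2, WT 3 and WT 4 and 17.2, 16.1 and 7.52 CPM in iKO 3, iKO 4 and iKO 33. The WT libraries were close together and iKO 33 was nearest to them. The log2 fold change of Sprr2e was 1.07 (SE 0.31, edgeR adjusted p = 0.192). DESeq2 gave adjusted p-values of 0.0150 for Sprr2d and 0.0281 for Sprr2e.

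The sequences before the transcription starts of these 3 genes are shown beside that of Sprr2i, a gene of the same subfamily with a log2 fold change of -0.17 (SE 0.49), which was chosen for the contrast after its values were seen. Each run is the 250 bases before the annotated start on the plus strand (RefSeq, GRCm38.p6), at chr3:92432332-92432581 for Sprr2k, chr3:92351893-92352142 for Sprr2e, chr3:92338890-92339139 for Sprr2d and chr3:92407741-92407990 for Sprr2i. Capitals mark matches, on either strand, to the AP-1 motif TGANTCA, to AGATAA or TGATAA as GATA motifs, to the KLF motif CACCC and to the TATA box TATAAA.
Sprr2k: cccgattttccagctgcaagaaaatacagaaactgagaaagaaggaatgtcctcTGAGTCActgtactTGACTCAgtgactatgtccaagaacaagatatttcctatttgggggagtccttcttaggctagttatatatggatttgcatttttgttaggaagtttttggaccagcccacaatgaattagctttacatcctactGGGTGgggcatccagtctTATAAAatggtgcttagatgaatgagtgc
Sprr2e: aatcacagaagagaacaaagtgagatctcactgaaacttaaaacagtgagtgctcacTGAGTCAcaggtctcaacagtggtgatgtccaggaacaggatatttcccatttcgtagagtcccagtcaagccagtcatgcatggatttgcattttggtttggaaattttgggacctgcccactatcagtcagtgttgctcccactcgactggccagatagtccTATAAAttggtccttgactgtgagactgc
Sprr2d: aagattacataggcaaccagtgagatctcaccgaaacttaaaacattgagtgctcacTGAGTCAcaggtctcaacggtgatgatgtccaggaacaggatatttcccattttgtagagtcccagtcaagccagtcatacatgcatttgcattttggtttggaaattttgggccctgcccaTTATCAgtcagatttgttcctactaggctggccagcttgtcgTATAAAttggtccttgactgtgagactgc
Sprr2i: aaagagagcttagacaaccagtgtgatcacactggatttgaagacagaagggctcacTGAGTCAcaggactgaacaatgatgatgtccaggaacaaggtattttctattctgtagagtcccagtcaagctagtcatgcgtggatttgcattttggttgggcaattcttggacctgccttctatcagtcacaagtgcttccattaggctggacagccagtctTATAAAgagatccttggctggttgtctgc

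The 4 promoters share their layout whether or not the gene's groups overlapped. A TGANTCA match begins 193 bases before the start in Sprr2d, Sprr2e and Sprr2i, and Sprr2k has a pair of them, at 196 and 182 bases. The TATAAA match lies 29 bases before the start in all 4. The single TGATAA match is in Sprr2d, on the minus strand at 71 bases, and the CACCC match is in Sprr2k, on the minus strand at 47 bases. Over windows of 300 bases (250 before and 50 after the start), Sprr2d and Sprr2e were identical at 88.7% of aligned positions and Sprr2d and Sprr2i at 77.7%. Sprr2k was less like them, at 66.9% to Sprr2d and 63.8% to Sprr2i, and was closest to Sprr2h, at 81.8%. RefSeq held 53 such windows for 49 of the members. TGANTCA was found in 9 of 13 Sprr windows, in none of 19 Lce windows, in 2 of 14 S100a windows and in 5 of 7 of the genes named singly, and in 7.81% of all 32851 windows. TATAAA was found in 10 of 13 Sprr windows and 4 of 19 Lce windows, and in 13.6% of all windows. The GATA motif TGATAA was found in 9 of the 53 member windows (17%) and in 9.05% of all windows, and AGATAA in 7 (13.2%) and in 11.2%. CACCC was found in 29 (54.7%) and in 57.5% of all. A match to a short motif is a description of the letters and does not show that a factor binds there.

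Across the Sprr2 subfamily, 9 members were tested, 5 with a positive and 4 with a negative log2 fold change. WT 3 was the highest library in 3 of them and iKO 3 in 6. Sprr2g had a log2 fold change of -0.04 that was 0.99 without WT 3 and -0.52 without iKO 3. Sprr2h had one of 0.45 that was 1.07 without WT 3 and 0.08 without iKO 3. Without WT 3, 7 were positive and 2 negative, and the median moved from 0.45 to 0.99. Summed over the subfamily, the level was 176, 372 and 154 CPM in WT 2, WT 3 and WT 4 and 572, 302 and 284 CPM in iKO 3, iKO 4 and iKO 33. WT 3 lay among the libraries labelled iKO. The summed log2 fold change was 0.72 (SE 0.41, edgeR adjusted p = 0.460), and 1.22 (SE 0.34, adjusted p = 0.215) without WT 3. Sprr2 genes resemble one another, so reads can be shared or lost. All 50-base stretches of Sprr2k occur in no other annotated gene. The share of stretches found in no other gene was 95.7% for Sprr2d and 89.8% for Sprr2e. Sprr2a1 and Sprr2a2 had no read in any library, and only 3.72% and 3.53% of their stretches are their own. Alignments to more than 1 place are not counted to genes and have a summary line of their own. That line held 29.5% to 30.5% of all counts, summary lines included, in the libraries labelled WT. In those labelled iKO it held 21.7% to 26.5%. The part of such alignments in the values of genes with close copies was not tested.

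Sprr1a and Sprr1b, the most abundant Sprr genes, overlapped between the groups. Sprr1a measured 538, 477 and 359 CPM in WT 2, WT 3 and WT 4 and 649, 277 and 259 CPM in iKO 3, iKO 4 and iKO 33. Sprr1b measured 511, 375 and 245 CPM in WT 2, WT 3 and WT 4 and 969, 278 and 363 CPM in iKO 3, iKO 4 and iKO 33. In both genes iKO 3 was the highest of all, at 2.42 times the mean of iKO 4 and iKO 33 for Sprr1a and 3.02 times for Sprr1b. The log2 fold changes were -0.21 (SE 0.37, edgeR adjusted p = 0.837) for Sprr1a and 0.51 (SE 0.49, adjusted p = 0.683) for Sprr1b, which was -0.23 without iKO 3. Without that library Sprr1a stood at -0.77. Over all 13 tested Sprr genes, 7 were positive with a median of 0.07, and 5 were positive with a median of -0.37 without iKO 3. Of the other Sprr genes, Sprr3 had a log2 fold change of 0.07 (SE 0.43) and Sprr4 one of -1.18 (SE 1.01) from levels under 1 CPM.

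**Figure D2:**
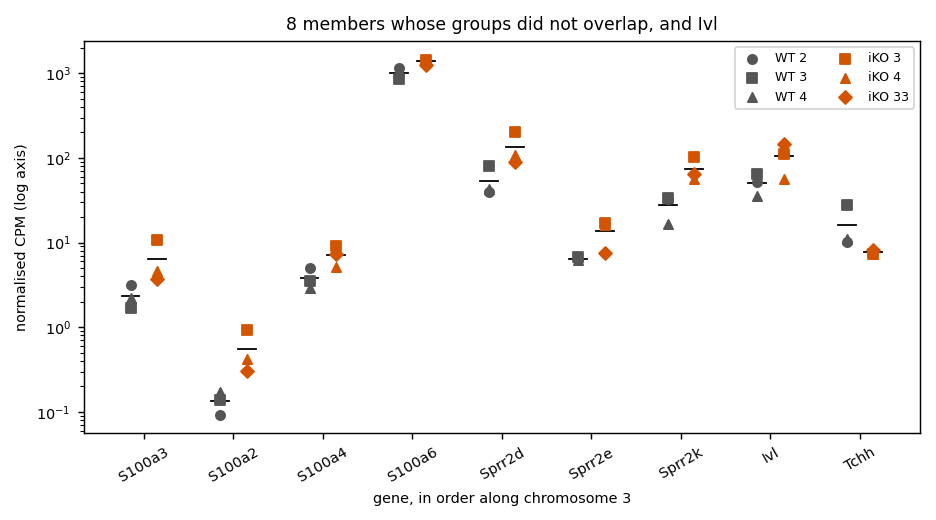
Each point is the normalised CPM of a library on a log axis, in grey for libraries labelled WT and orange for those labelled iKO, and bars mark group means. The 8 members without overlap are shown with Ivl, whose iKO 4 lies below WT 3.

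Involucrin and loricrin, the best known envelope proteins, differed in direction, and neither passed. Ivl, an early scaffold of the envelope, measured 52.3, 64.5 and 35.3 CPM in WT 2, WT 3 and WT 4 and 111, 56.4 and 146 CPM in iKO 3, iKO 4 and iKO 33. The groups overlapped, because iKO 4 lay below WT 3. The log2 fold change of Ivl was 1.04 (SE 0.37, edgeR adjusted p = 0.260), 1.25 without WT 3 and 0.72 without iKO 33. Lor, the main protein of the mature envelope, was low in these cells, at 7.28, 8.89 and 3.41 CPM in WT 2, WT 3 and WT 4 and 8.22, 3.80 and 1.84 CPM in iKO 3, iKO 4 and iKO 33. The value for Lor was -0.51 on the log2 scale (SE 0.58, edgeR adjusted p = 0.734), -0.22 without WT 3, -0.13 without iKO 33 and -1.22 without iKO 3. Per kilobase of exon, Ivl averaged 26.4 CPM under the WT label and 54.3 under the iKO label, and Lor 3.67 and 2.60.

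The Lce genes, which encode late envelope proteins and fall mostly into the Lce1 and Lce3 groups, had values that depended on WT 3. Of 19 tested, 15 had a negative and 4 a positive log2 fold change (median -0.94), and none passed in edgeR, had an unadjusted p under 0.05 or was called by DESeq2, which gave Lce1a2 and Lce1m no adjusted p. WT 3 was the highest library in 15 of the 19, and its ratio to the mean of WT 2 and WT 4 ran from 1.39 to 16.3 with a median of 4.94. Without WT 3 the count turned to 14 positive and 5 negative, with a median of 0.38, and none passed. Lce1a1 measured 2.90, 22.3 and 5.15 CPM in WT 2, WT 3 and WT 4 and 6.46, 5.58 and 4.01 CPM in iKO 3, iKO 4 and iKO 33. WT 2 lay below and WT 4 among the libraries labelled iKO, and WT 3 far above all. Its log2 fold change was -0.94 (SE 0.70) with WT 3 and 0.40 (SE 0.35) without. Lce3b measured 5.03, 23.2 and 7.02 CPM in WT 2, WT 3 and WT 4 and 7.0, 4.24 and 1.55 CPM in iKO 3, iKO 4 and iKO 33. It kept a negative value without WT 3, moving from -1.49 to -0.51. Lce1m had the largest excess in WT 3, at 8.55 CPM, where WT 2 was at 0.369 and WT 4 at 0.682. Among the libraries labelled iKO it was highest in iKO 33, and its log2 fold change went from -0.35 to 2.26 without WT 3.

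In Lce3f, Lce1f and Lce1h it was iKO 3 that was the highest library. Lce3f measured 1.84, 11.8 and 2.33 CPM in WT 2, WT 3 and WT 4 and 17.8, 11.2 and 7.0 CPM in iKO 3, iKO 4 and iKO 33. Apart from WT 3, all libraries labelled iKO were above those labelled WT, and the log2 fold change was 1.14 (SE 0.73), 2.51 (SE 0.45) without WT 3 and 0.75 without iKO 3. Lce1f measured 20.4, 28.0 and 8.25 CPM in WT 2, WT 3 and WT 4 and 54.3, 21.1 and 18.0 CPM in iKO 3, iKO 4 and iKO 33, with overlapping groups. Summed over the Lce genes, the level was 55.8, 229.5 and 66.2 CPM in WT 2, WT 3 and WT 4 and 147, 90.5 and 61.7 CPM in iKO 3, iKO 4 and iKO 33. The summed log2 fold change was -0.24 (SE 0.58, edgeR adjusted p = 0.890), and 0.71 (SE 0.37, adjusted p = 0.432) without WT 3. Most Lce genes are near copies of one another. Between 50.7% and 87.9% of the 50-base stretches of the Lce3 genes are their own. In the Lce1 genes other than Lce1m the share runs from 72.9% (Lce1i) to 90.9% (Lce1k). Single values of these genes are therefore uncertain. All stretches of Lce1m and Lce6a are their own. Lce6a was not tested, with 37 reads in WT 3 and at most 8 in any other library.

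**Figure D3:**
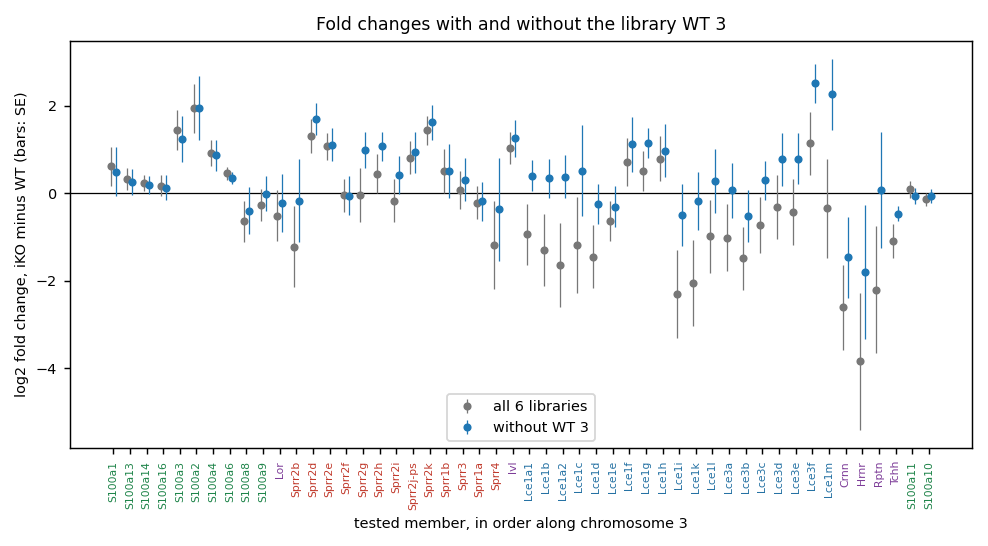
Points are log2 fold changes of libraries labelled iKO against those labelled WT, with bars for the SE, for the 50 tested members along chromosome 3, in grey for all 6 libraries and blue without WT 3. Most Lce genes lie below 0 with all libraries and above 0 without WT 3, and the S100a genes move less.

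Of the large S100-fused proteins, which join an S100 domain to long repeats and associate with keratin filaments, Tchh, Crnn, Hrnr and Rptn had negative log2 fold changes, which without WT 3 were nearer 0 or, in Rptn, turned to 0.08. Tchh, trichohyalin of the hair follicle and tongue, measured 10.2, 27.6 and 10.9 CPM in WT 2, WT 3 and WT 4 and 7.35, 7.40 and 8.25 CPM in iKO 3, iKO 4 and iKO 33. It was the member lower in all libraries labelled iKO, with WT 2 and WT 4 close above them. Its log2 fold change was -1.09 (SE 0.39, edgeR adjusted p = 0.267), and -0.47 (SE 0.18) without WT 3. Crnn, cornulin, measured 1.24, 3.14 and 0.227 CPM in WT 2, WT 3 and WT 4 and 0.160, 0.0889 and 0.471 CPM in iKO 3, iKO 4 and iKO 33, where iKO 33 was above WT 4. The log2 fold change of Crnn was -2.61 (SE 0.98, edgeR adjusted p = 0.286), and -1.46 without WT 3. Hrnr, hornerin, measured 0.738, 3.47 and 0.0284 CPM in WT 2, WT 3 and WT 4 and 0.320, 0.0222 and 0.0235 CPM in iKO 3, iKO 4 and iKO 33. WT 4 was as low as the 2 lowest libraries labelled iKO, each of these at a few reads. Its log2 fold change of -3.84 (SE 1.57, edgeR adjusted p = 0.320) was the lowest of any member, and it was -1.80 without WT 3 and -5.85 without iKO 3. Rptn, repetin, ran from 1.11 CPM in WT 4 to 32.9 in WT 3, and from 0.400 in iKO 4 to 7.48 in iKO 3. The groups overlapped, and its log2 fold change was -2.20 (SE 1.44), 0.08 (SE 1.32) without WT 3 and -4.46 (SE 1.54) without iKO 3. Flg2, filaggrin 2, was not tested, with 35 reads in WT 3 and at most 8 in any other library.

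The S100a genes were the steadiest members across libraries, and 9 of 12 tested had positive log2 fold changes (median 0.28). Without WT 3 it was 8 of 12, with a median of 0.22, as S100a11 went from 0.09 to -0.06. Their median SD within groups was 0.376 on the log2 scale, against 1.18 for the Lce genes. S100a6, calcyclin, measured 1139, 849 and 1055 CPM in WT 2, WT 3 and WT 4 and 1433, 1493 and 1251 CPM in iKO 3, iKO 4 and iKO 33. The groups did not overlap, at 1014 ± 149 and 1392 ± 126 CPM (SD, n = 3). The log2 fold change of S100a6 was 0.46 (SE 0.14, edgeR adjusted p = 0.217), and 0.34 without WT 3. S100a4, a binder of non-muscle myosin, measured 4.98, 3.51 and 2.90 CPM in WT 2, WT 3 and WT 4 and 9.02, 5.11 and 7.31 CPM in iKO 3, iKO 4 and iKO 33. WT 2 and iKO 4 were nearly level, and the log2 fold change was 0.92 (SE 0.31, edgeR adjusted p = 0.238). S100a3, known from the hair cuticle, measured 3.18, 1.67 and 2.22 CPM in WT 2, WT 3 and WT 4 and 10.7, 4.64 and 3.77 CPM in iKO 3, iKO 4 and iKO 33. The highest was iKO 3, and the log2 fold change of 1.45 (SE 0.47, edgeR adjusted p = 0.224; DESeq2 adjusted p = 0.0308) was 0.85 without it and 1.24 without WT 3. S100a2, an epithelial S100 gene, was near the limit of detection, at 0.0922, 0.139 and 0.171 CPM in WT 2, WT 3 and WT 4 and 0.927, 0.422 and 0.306 CPM in iKO 3, iKO 4 and iKO 33. Its log2 fold change, 1.94 (SE 0.57, edgeR adjusted p = 0.191), was the highest of any member. It was also 1.94 without WT 3, and 1.37 without iKO 3.

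S100a3, S100a2, S100a4 and S100a6 lie side by side between 90560578 and 90624181, with S100a5 between S100a4 and S100a6. S100a5 had 1 read in all, in iKO 33. The annotated span of S100a3 (90560578 to 90602702) contains that of S100a2 (90590247 to 90591508). Of the 50-base stretches of S100a4, 52.6% are its own, and the rest are shared with an annotated gene, Gm42674. That gene is not among the other genes of the table that lie between the outermost members. Its part in the count of S100a4 was not tested. All 50-base stretches of S100a2 and 98.1% of those of S100a3 occur in no other annotated gene.

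Of the abundant S100 genes, S100a11, S100a10, S100a14 and S100a16 overlapped between the groups. Per kilobase of exon, S100a11 was the most abundant S100a gene and the most abundant member, averaging 2186 CPM under the WT label and 2327 under the iKO label, followed among the S100a genes by S100a6 at 742 and 1018, S100a10 at 634 and 576 and S100a14 at 363 and 427. On the same scale Sprr1a averaged 568 and 490 and Sprr1b 454 and 647. S100a11, a partner of annexin A1, measured 1226, 869.6 and 1255 CPM in WT 2, WT 3 and WT 4 and 1238, 1388 and 940.1 CPM in iKO 3, iKO 4 and iKO 33. S100a10, the partner of annexin A2, measured 734, 849 and 721 CPM in WT 2, WT 3 and WT 4 and 582, 803 and 709 CPM in iKO 3, iKO 4 and iKO 33. In both genes the ranges of the groups crossed, and the log2 fold changes were 0.09 (SE 0.20) and -0.14 (SE 0.15). S100a14 and S100a16 encode epithelial S100 proteins, and both were highest in iKO 3. S100a14 measured 600.4, 585 and 694 CPM in WT 2, WT 3 and WT 4 and 899, 753 and 558 CPM in iKO 3, iKO 4 and iKO 33, a log2 fold change of 0.23 (SE 0.18), and 0.07 without iKO 3. S100a16 measured 300.1, 241 and 231 CPM in WT 2, WT 3 and WT 4 and 401, 255 and 214 CPM in iKO 3, iKO 4 and iKO 33, a log2 fold change of 0.17 (SE 0.24), and -0.14 without iKO 3.

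S100a8 and S100a9, whose proteins pair as calprotectin in neutrophils and in stressed keratinocytes, had negative values with overlapping groups. S100a8 measured 10.5, 17.0 and 11.9 CPM in WT 2, WT 3 and WT 4 and 13.8, 8.27 and 3.49 CPM in iKO 3, iKO 4 and iKO 33. S100a9 measured 20.2, 29.0 and 16.1 CPM in WT 2, WT 3 and WT 4 and 27.9, 15.3 and 11.1 CPM in iKO 3, iKO 4 and iKO 33. In both, WT 3 and iKO 3 were the highest of their groups. The log2 fold changes were -0.64 (SE 0.47, edgeR adjusted p = 0.582) and -0.27 (SE 0.37, adjusted p = 0.787), -0.40 and -0.01 without WT 3, and -1.17 and -0.72 without iKO 3. Without iKO 33 they were -0.26 and -0.01. Markers of neutrophils and macrophages summed to 10.9 to 17.2 CPM in the libraries labelled WT and 13.3 to 16.0 in those labelled iKO, nearly all of it Cxcr2, while Mpo, Elane and Camp were at 0 in every library.

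**Figure D4:**
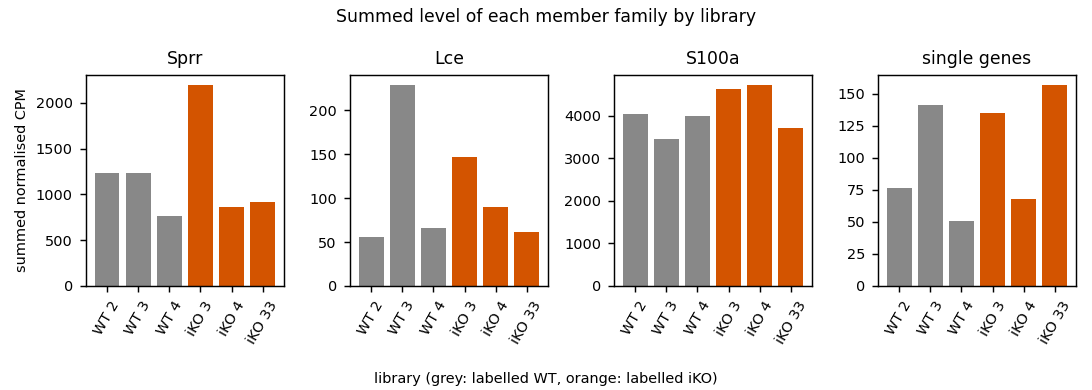
Bars from 0 give the summed normalised CPM of each family of members in each library, grey for libraries labelled WT and orange for those labelled iKO. The Sprr sum is highest in iKO 3, the Lce sum in WT 3, and the S100a sum differs least between libraries.

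As a share of all gene reads, the 55 members together made up 0.493% to 0.678% per library, most of it from S100a genes. The S100a sum was 4042, 3447 and 3992 CPM in WT 2, WT 3 and WT 4 and 4619.6, 4729.7 and 3701 CPM in iKO 3, iKO 4 and iKO 33. The Sprr sum was 1231, 1233 and 763 CPM in WT 2, WT 3 and WT 4 and 2200.1, 860.1 and 912 CPM in iKO 3, iKO 4 and iKO 33. The groups overlapped in each of these sums.

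Of 13 other genes of the table that lie between the outermost members, 7 were tested, 3 with positive and 4 with negative log2 fold changes. WT 3 was the highest library in 4, beside 21% of all tested genes. Pglyrp3, a peptidoglycan recognition protein that acts against bacteria, was the 1 that passed edgeR's test: it rose from 1.75, 1.77 and 2.16 CPM in WT 2, WT 3 and WT 4 to 10.6, 7.02 and 9.31 CPM in iKO 3, iKO 4 and iKO 33. The groups were far apart, and its log2 fold change was 2.24 (SE 0.24, edgeR adjusted p = 0.0239), and 2.19 without WT 3. Crct1, a cysteine-rich gene beside the Lce genes, stood at 193 CPM in WT 3 and between 27.9 and 58.7 in the other 5 libraries, and its log2 fold change of -0.997 was 0.11 without WT 3. Prr9, a proline-rich gene, stood at 152 CPM in WT 3 and between 2.5 and 52.2 in the others, and its value of -1.07 was 2.36 without WT 3. Over the 7 genes the median was -0.32, and 0.39 without WT 3.

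Genes of the cornified envelope and of late differentiation outside the locus were mixed. Of 39 tested, 15 had positive and 24 negative log2 fold changes (median -0.09, and 0.12 without WT 3). None passed in edgeR. Before adjustment, 7 had p-values under 0.05, beside 15% of all tested genes. DESeq2 called 4 as higher and 2 as lower, beside 5.74% of all genes with an adjusted p. Tgm1, the transglutaminase that cross-links the envelope, measured 32.0, 26.7 and 24.5 CPM in WT 2, WT 3 and WT 4 and 147, 66.4 and 83.1 CPM in iKO 3, iKO 4 and iKO 33, without overlap. For Tgm1 the log2 fold change was 1.84 (SE 0.30, edgeR adjusted p = 0.0690), and 1.81 without WT 3. The log2 fold change of Klk8, an epidermal protease, was 2.05 (SE 0.47). Cldn4, a tight junction protein, had one of 0.85 (SE 0.14) and Plac8 one of -1.92 (SE 0.28). The 3 genes had edgeR adjusted p-values of 0.138, 0.0659 and 0.0568. Krt10, a keratin of suprabasal cells, and its partner Krt1 were lower in every library labelled iKO, where 11.3% of all tested genes were. Krt10 had a value of -1.11 (SE 0.36, edgeR adjusted p = 0.226, DESeq2 adjusted p = 0.0415), and -0.72 without WT 3. Krt1 had one of -1.0 (SE 0.61), and the suprabasal secreted proteins Sbsn and Krtdap had -0.09 (SE 0.51) and -0.59 (SE 0.58). In this list WT 3 was the highest library in 12 genes and iKO 3 in 19, where the shares over all tested genes were 21% and 21.4%.

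Of 29 tested regulators of the locus, 21 had positive and 8 negative log2 fold changes (median 0.22), where 6483 of all 12672 tested genes were positive. None passed in edgeR. Before adjustment, 7 had p-values under 0.05, beside 15% of all tested genes. DESeq2 called 3 as higher and 1 as lower, beside 5.74% of all genes with an adjusted p. Trp63, the p63 factor that maintains basal keratinocytes, measured 331, 307 and 323 CPM in WT 2, WT 3 and WT 4 and 203, 191 and 205 CPM in iKO 3, iKO 4 and iKO 33. The groups did not overlap, with a log2 fold change of -0.68 (SE 0.10, edgeR adjusted p = 0.0529). Grhl3 and Zfp750, factors of late epidermal differentiation, had values of 1.03 (SE 0.25) and 1.02 (SE 0.32), and the AP-1 subunit gene Jund one of 0.46 (SE 0.11), with edgeR adjusted p-values of 0.152, 0.215 and 0.149.

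Stress keratins and genes of activated keratinocytes had 5 positive and 12 negative values of 17 tested (median -0.15). None passed in edgeR, and 4 had p-values under 0.05 before adjustment, beside 15% of all tested genes. DESeq2 called 1 as higher and 1 as lower, beside 5.74% of all genes with an adjusted p. The growth factor gene Hbegf stood at 0.77 (SE 0.16). The antimicrobial genes Defb3 and Lcn2 had -3.25 (SE 0.83) and -1.84 (SE 0.45) from levels under 1 CPM, and Ptgs2, an inducible prostaglandin synthase, had -0.64 (SE 0.24), and -0.34 without WT 3. Of 8 tested partners and receptors of S100 proteins, 4 had positive and 4 negative values, none passed in edgeR and DESeq2 called none. An unadjusted p under 0.05 was reached by 2 of them, beside 15% of all tested genes. They were Bsg, a receptor of S100A9, with 0.32 (SE 0.11), and Tlr4, a receptor of calprotectin, with -1.48 (SE 0.53), and -0.70 without WT 3. Anxa2, the partner of S100a10, had a log2 fold change of 0.02 (SE 0.12).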

How the data were processed

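Counts of reads per gene symbol, as deposited, are raw whole numbers for 6 libraries. TopHat2, HTSeq, DESeq2, DESeq and the build mm10 are named in the submitters' processing notes. For versions, annotation, strand and read length, the setting is not given in the sources used here. Summary lines of HTSeq (27.4% to 35.5% of counts per library) were left out. The column numbered 33 matches no iKO title and was used as an iKO replicate without a number. Libraries of the same group all differed by more than sampling noise (chi-square per degree of freedom at least 51.7). The authors' deposited comparison table holds a mean signal over libraries, log2 fold changes with SE, a Wald score and p-values, per the file headers.

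Counts were fitted for all genes with edgeR 4.0.16 (R 4.3.3): filterByExpr with a minimum count of 10, TMM factors, glmQLFit with robust estimation and glmQLFTest, group as the only term, two-sided, Benjamini-Hochberg adjustment over 12672 genes at 0.05. The SE was obtained as |log2 fold change|/√F. Log2 CPM used a prior count of 2. DESeq2 1.42.0 and limma-voom (limma 3.58.1), other scalings and filters, thresholds, a replicate block and leaving out libraries were alternatives. Members, lists and tests were chosen with earlier results of these data known. Members were described in every library if they had an unadjusted p under 0.05, groups without overlap or a mean CPM among the 8 highest, or were Lor, Ivl, Sprr1a, Sprr1b, Sprr2d, S100a8 or S100a9; from other lists, up to 4 genes with the smallest p and fixed differentiation genes were named. Lce1a1, Lce3b, Lce1m, Lce3f, Lce1f, Rptn, Crct1, Prr9 and Anxa2 were added after their values were seen. Gene positions are from GENCODE M21 on mm10, and promoter sequences from RefSeq.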

Additional observations from a re-analysis of the deposited data

How the results depend on the processing

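Of 20 members described library by library, 14 kept the direction of their log2 fold change in every alternative that tested them. The others were Lor, S100a10, S100a11, S100a16, Sprr1a and Sprr1b. Of the 20, 11 were chosen for an unadjusted p under 0.05 in edgeR, and all 11 kept their direction. Their steady direction is therefore no separate support. The test was passed in at least 1 alternative by 4 members. Leaving out each library in turn gave 7 to 31 genes past edgeR's test where all 6 libraries gave 43, always 0 members, and medians of the tested members from -0.54 (without iKO 3) to 0.32 (without WT 3) in place of -0.19. The count over all genes was 76 with no count filter, 152 at an adjusted p of 0.10, 14 at 0.01 and 760 in DESeq2, which called 4 members.

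With the replicate block on the libraries numbered 3 and 4, edgeR called 103 genes and 2 members, Sprr2d (1.34, adjusted p = 0.0282) and Sprr2k (1.68, adjusted p = 0.0233), and Lor stood at 0.0147 and Sprr1a at 0.0354. Those 4 libraries without a block gave 4 genes and no member, with Sprr1a at 0.15. The labels tie the numbers to nothing shared. With only 2 pairs, the deviations of equal numbers correlated at 0.596 over all tested genes and 0.552 over members.

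Without WT 3 and iKO 3, an alternative chosen after seeing the data as was the fit of 4 libraries without a block, 1 member passed, Sprr2d (1.27, adjusted p = 0.0387). S100a10 then stood at 0.0542, S100a11 at -0.0930, S100a16 at -0.18 and Sprr1b at -0.24. Over single libraries left out, S100a11 ranged from -0.0622 to 0.23, S100a16 from -0.14 to 0.35, Sprr1a from -0.77 to 0.0150 and Sprr1b from -0.23 to 0.82. Smaller groups overlap less by construction, so counts of members without overlap are given beside the share of all tested genes in the same libraries. They were 8 of 50 members (21.9% of genes) with all 6 libraries, and 10 to 18 members (29.2% to 36% of genes) when a library was left out. With the libraries numbered 3 and 4, with the block or without, they were 17 of 48 (40.7%), and without WT 3 and iKO 3 22 of 47 (48.9%). Other scalings moved the median of all genes to between -0.01 and 0.02. The cause of these changes was not tested. Precision is limited by 3 libraries a group, by WT 3 and iKO 3, which stand apart in these genes, and by levels under 1 CPM for several members. No outlier test was run on groups of 3.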
